A study of Mus musculus with 26 samples.

Results

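The ephrins are the 8 membrane-bound ligands of the Eph receptor tyrosine kinases in the mouse: Efna1, Efna2, Efna3, Efna4, Efna5, Efnb1, Efnb2 and Efnb3. They were chosen by gene symbol, and all 8 were among the 18193 genes named on the array, where 17 probe sets (groups of probes that report a transcript) represent them. Their levels were read in 13 subtypes of neurons sorted from the retina of mice at postnatal day 6. Each subtype was measured on 2 Affymetrix arrays from different litters, 26 arrays in all. The 6 ganglion cell subtypes, the output neurons of the retina, were sorted as Thy1-positive: BD, J, W3 and W7 by YFP, Cdh3 by GFP from a bacterial artificial chromosome transgene, and Isl2 by beta-galactosidase. The 2 bipolar subtypes, which carry photoreceptor signals inward, were ON bipolar cells, sorted by GFP, and MP bipolar cells, sorted as CFP-positive and VC1.1-negative. The 5 amacrine subtypes, interneurons of the inner retina, were starburst cells (Kusabira Orange-positive, Thy1-negative), PaxCre cells (GFP-positive, labelled GABAergic), MP cells (CFP-positive, VC1.1-positive), AII cells (GFP-positive) and J cells (YFP-positive, labelled glycinergic). The strain label was C57BL/6 for all but Cdh3 and AII, labelled as Swiss Webster crosses, and the 2 MP subtypes, labelled as mixed C57BL/6 and CD1. Where Cdh3, AII or MP cells are set against C57BL/6 subtypes, subtype and strain cannot be told apart. A reporter line marks the cells in which its transgene is on, so each subtype is a sorted population and not necessarily a single cell type, and in such bulk samples fewer cells of a type and less RNA per cell cannot be told apart.

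Ephrins act at contacts between cells. The A class is anchored in the membrane by a lipid and binds mainly EphA receptors, whereas the B class spans the membrane and binds mainly EphB receptors, with Epha4 able to bind both. Binding can signal into the cell that bears the receptor (forward signalling) and into the cell that bears the ephrin (reverse signalling), and it often repels or detaches the contacting process. In the visual system these proteins are known for guiding ganglion cell axons to ordered positions in the brain, with gradients across the retina and its targets.

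Levels below are log2(intensity + 16), then quantile normalized over the 26 arrays. An intensity of 1, near the bottom of the scale, gives 4.09. A difference of 1 is a factor of 2 on this scale, and the factor is understated for dim genes. Testing was limited to genes with at least 2 arrays above 6.14, the median of all probe sets, of which there were 13951. A difference passed the test with a limma adjusted p below 0.05 and a size of at least 1. The level of a probe set can be compared across arrays but not with that of another probe set. The 12 ganglion arrays were deposited on a higher scale than the 14 others, with medians of 61.5 to 74.7 against 37.4 to 47.2 intensity units, and 13 of 64 control probe sets did not overlap between these sets as deposited (5 after normalization). Ganglion class and array set therefore cannot be told apart. Defining markers mostly followed the labels. Of tested ganglion markers, 7 of 8 were higher in ganglion than in amacrine cells, where 24.8% of all genes passed. Of bipolar markers, 8 of 8 were higher in bipolar than in amacrine cells, where 10.4% of all genes passed. The amacrine marker list averaged 8.46 in MP amacrine cells, against 9.57 (AII) to 10.22 (PaxCre) in the other amacrine subtypes. The starburst list averaged 9.07 in starburst cells and at most 6.35 elsewhere (MP bipolar). The AII list averaged 11.82 in AII cells, but also 9.71 in ON bipolar cells. Thy1, the gate of the ganglion sorts, was also high outside them, at 11.67 ± 0.32 in MP bipolar, 10.38 ± 0.62 in MP amacrine and 9.98 ± 0.49 in starburst cells (SD, n = 2 each), and Gad1, a GABA synthesis enzyme, was 6.20 ± 0.35 in MP amacrine cells against 12.39 ± 0.28 in starburst cells.

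7 of the 8 ephrins passed the filter on dim genes; Efna1 did not. In limma's F test, 6 of those 7 differed among the 13 subtypes (adjusted p between 2.28e-14 for Efna3 and 3.51e-05 for Efna5), where 79.4% of all tested genes did. The exception was Efna4 (adjusted p = 0.097). The same 6 differed among the 5 amacrine subtypes, where 52.5% of all genes did. Among the 6 ganglion subtypes only Efnb2 passed (adjusted p = 0.00847), where 6.38% of all genes did. The 6 that differed did so within the amacrine class too, whereas 5 of them gave no call among ganglion subtypes.

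**Figure D1:**
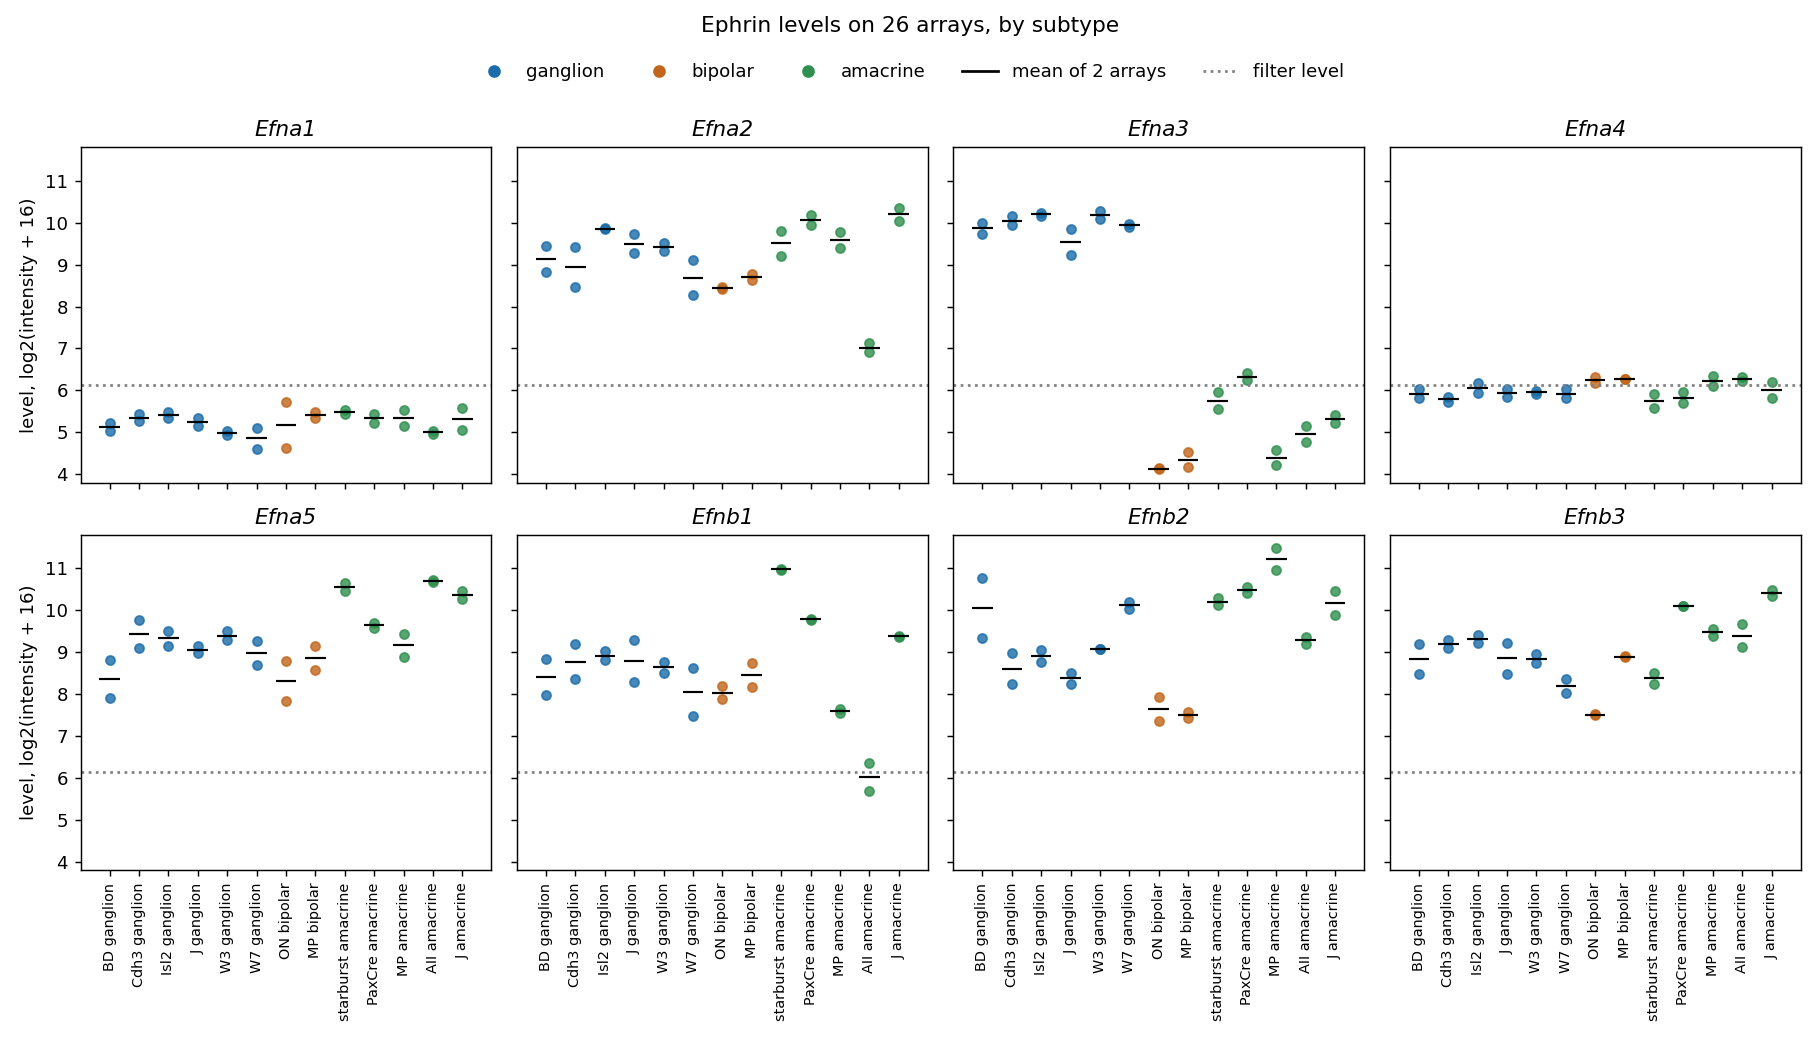
Level of each ephrin, log2(intensity + 16), on every array (points) with the mean of the 2 arrays of a subtype (bars), for ganglion, bipolar and amacrine subtypes; the dotted line is the filter level of 6.14. Efna3 lay between 9.23 and 10.27 on all 12 ganglion arrays and below 6.5 on the other 14, Efnb2 was lowest in the bipolar subtypes, and AII cells had the lowest Efna2 and Efnb1.

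Of the A class, Efna3 separated the classes most widely. On the 12 ganglion arrays its level was 9.23 at the lowest, 9.98 at the median and 10.27 at the highest. On the 4 bipolar arrays it was 4.14 and 4.12 (ON) and 4.52 and 4.16 (MP), close to the bottom of the scale. The 10 amacrine arrays read 5.55 and 5.95 (starburst), 6.24 and 6.42 (PaxCre), 4.58 and 4.21 (MP), 4.76 and 5.16 (AII) and 5.41 and 5.21 (J). Every ganglion array lay above every other array, and only the PaxCre arrays among the rest passed the filter level. In deposited units, the ganglion arrays read 738 to 1488 and the PaxCre arrays 50.6 and 56.0, whereas the ON bipolar arrays read 1.66 and 1.34.

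Ganglion cells exceeded bipolar cells in Efna3 by 5.73 ± 0.13 (SE; limma adjusted p = 3.92e-16) and amacrine cells by 4.61 ± 0.10 (adjusted p = 3.79e-17). Because the bipolar arrays and 8 of the 10 amacrine arrays lay under the filter level, these sizes depend on the pseudocount and no fold is given: with a pseudocount of 4 the difference from bipolar cells was 7.21, and with 64 it was 3.97. The pair of subtypes taken from the J line gave 4.24 ± 0.23 for ganglion minus amacrine cells (adjusted p = 1.87e-10). Bipolar minus amacrine was -1.11 ± 0.13 (adjusted p = 3.51e-06), a difference between dim groups that fell under the size threshold as deposited (-0.96), with a median shift (-0.95), with quantiles within array sets (-0.97), with a pseudocount of 64 (-0.45) and on the next probe set (-1.0). For scale, 9.39% of tested genes had all 12 ganglion arrays above all 14 others. The ganglion subtypes themselves spanned 9.55 (J) to 10.20 (Isl2) and did not pass the test among them (adjusted p = 0.327). Within the amacrine class, PaxCre cells were higher than the other subtypes by 1.23 ± 0.18 (adjusted p = 9.80e-05) and MP cells lower by a difference of -1.20 ± 0.18 (adjusted p = 0.000101). With a pseudocount of 64 both were under the size threshold (0.62 and -0.5), as was the PaxCre difference with C57BL/6 subtypes only (0.8).

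The second probe set of Efna3 gave a smaller class difference. It showed ganglion cells above bipolar cells by 1.91 ± 0.15 and above amacrine cells by 0.92 ± 0.11, under the size threshold, and J ganglion minus J amacrine cells was 0.04 ± 0.26. On it the highest subtype was PaxCre amacrine (7.51 ± 0.16), next to W3 ganglion cells (7.47 ± 0.32; SD, n = 2 each). Both probe sets placed MP amacrine and the bipolar subtypes at the bottom, and their subtype means correlated with r = 0.82 over the 13 subtypes, which share the arrays. The 2 probe sets therefore gave the same direction for ganglion against bipolar cells, while the size of the gap to amacrine cells depended on the probe set. Which transcripts each one reports was not examined.

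Microglial and vascular genes moved with the ganglion class as well. All 9 tested microglial markers and 6 of 11 tested vascular markers were higher in ganglion than in amacrine cells. Of all tested genes, 24.8% passed in that comparison, 63.7% of these being higher in ganglion cells. Over the whole microglial list of 10 genes, the mean level per array ranged from 5.87 to 10.02 on ganglion arrays, from 5.46 to 6.51 on bipolar arrays and from 5.36 to 7.34 on amacrine arrays. Their part in the class differences of the ephrins was not tested.

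Efna1, Efna3 and Efna4 lie in a row on chromosome 3, with only long noncoding RNA loci between them in the RefSeq annotation of GRCm38.p6. The bases upstream of Efna3 and Efna4 are shown because these neighbours gave unlike readings. Ganglion minus amacrine was 4.61 for Efna3 on its brightest probe set and -0.09 ± 0.08 for Efna4. The second Efna3 probe set gave 0.92 ± 0.11. Efna4 was above the filter level on only 9 of 26 arrays, so its small difference is limited by dim signal. RefSeq promoter windows matched 7 of the 8 ephrins, Efnb3 being the exception; Efna3 has 2 annotated starts, and the farther upstream is shown. Each sequence below is the 250 bases before an annotated start, 5′ to 3′ on the gene's strand, with the GC box GGGCGG, a motif bound by Sp1-family factors, in capitals.
Efna3 promoter (chr3:89322940-89323189, minus strand): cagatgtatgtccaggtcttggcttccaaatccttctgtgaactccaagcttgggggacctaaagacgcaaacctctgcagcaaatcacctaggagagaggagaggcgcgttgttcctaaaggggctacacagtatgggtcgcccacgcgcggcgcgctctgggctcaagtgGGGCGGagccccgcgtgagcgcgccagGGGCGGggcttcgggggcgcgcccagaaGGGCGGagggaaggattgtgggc
Efna4 promoter (chr3:89338029-89338278, minus strand): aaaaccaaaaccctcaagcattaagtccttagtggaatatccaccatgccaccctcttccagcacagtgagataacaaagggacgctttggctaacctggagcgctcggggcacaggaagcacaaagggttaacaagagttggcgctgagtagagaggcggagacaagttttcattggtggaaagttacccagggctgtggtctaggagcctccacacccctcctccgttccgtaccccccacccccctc
Searched on both strands, the GC box occurred 3 times in this Efna3 window and not in that of Efna4, and 32.7% of 32851 mouse promoter windows of this length hold it. The E-box CANNTG occurred 2 times in this Efna3 window and the AP-2 motif GCCNNNGGC once, against 66.2% and 13.7% of all windows. Neither motif had a match in the Efna4 window, and the homeodomain motif TAATTA (4.84% of windows) was in neither. CpG dinucleotides numbered 19 in this Efna3 window and 7 in that of Efna4, where the median window has 6. The other Efna3 window held 3 GC boxes, no E-box, no AP-2 motif and 31 CpG dinucleotides. A match is a description of the letters only.

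Efna4 stayed close to the filter level everywhere. Its subtype means ran from 5.76 ± 0.23 in starburst to 6.28 ± 0.06 in AII and 6.28 in MP bipolar cells, a span of 0.52, and 9 of 26 arrays lay above the filter level. It passed in none of the 18 comparisons. Efna1 was above the filter level on 0 of 26 arrays, with subtype means of 4.85 (W7) to 5.48 (starburst), and its other probe set was dimmer still. At these intensities neither gene can be ordered across subtypes: for both, no neighbouring pair in the order had separate arrays.

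Efna5, a ligand with strong affinity for EphA receptors and a known part of the visual map, was brightest in amacrine cells. The arrays read 10.67 and 10.72 in AII, 10.47 and 10.66 in starburst, 10.27 and 10.47 in J, 9.58 and 9.70 in PaxCre and 8.89 and 9.43 in MP amacrine cells. Bipolar arrays read 7.83 and 8.78 (ON) and 8.58 and 9.15 (MP), and ganglion arrays 7.90 at the lowest, 9.14 at the median and 9.76 at the highest. AII, starburst and J amacrine cells lay above all ganglion and bipolar arrays, whereas MP amacrine cells overlapped with both.

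Bipolar minus amacrine was -1.50 ± 0.20 for Efna5 (limma adjusted p = 1.15e-05), and J ganglion minus J amacrine was -1.31 ± 0.34 (adjusted p = 0.00382), but -0.86 as deposited, under the size threshold. MP amacrine cells were below the other amacrine subtypes by a difference of -1.16 ± 0.27 (adjusted p = 0.00382), which without MP replicate 1 was -0.89 (adjusted p = 0.104). Ganglion minus amacrine was -1.0 ± 0.14 (adjusted p = 6.89e-06) and fell just short of the size threshold before rounding. It was past that threshold with C57BL/6 subtypes only (-1.17), a median shift (-1.02) or a pseudocount of 4 (-1.01), and -0.51 as deposited. Without the MP amacrine arrays, a setting chosen after seeing the data, it was -1.23 (adjusted p = 1.64e-06). The other Efna5 probe set was above the filter level on no array.

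Efna2, another ligand of the map-forming A class, was low in a single amacrine subtype. AII arrays read 7.13 and 6.91, against 10.05 and 10.35 in J, 10.19 and 9.94 in PaxCre, 9.78 and 9.39 in MP and 9.81 and 9.21 in starburst amacrine cells. Ganglion arrays ran from 8.27 to 9.87 around a median of 9.37, and bipolar arrays from 8.43 to 8.77. Both AII arrays lay below every other array.

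AII minus the other amacrine subtypes was -2.82 ± 0.25 for Efna2 (limma adjusted p = 1.60e-07), 7.06-fold lower in AII cells. J amacrine cells were higher than the others by 1.16 ± 0.25 (adjusted p = 0.00468), which missed the test without J replicate 2 (1.01, adjusted p = 0.0792). GABAergic subtypes (starburst and PaxCre) exceeded glycinergic ones (AII and J) by 1.18 ± 0.22 (adjusted p = 0.000797), but J cells lay above both GABAergic subtypes, and with C57BL/6 subtypes alone, which leaves out AII, the difference was -0.42 (adjusted p = 0.362). No class comparison passed. The second Efna2 probe set, much dimmer with a mean of 6.33, did not follow the first (r = -0.22 over 13 subtypes): on it AII differed by 0.10 ± 0.19 and J by -0.31 ± 0.19, so these Efna2 differences rest on 1 probe set.

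Of the B class, Efnb2 was lowest in bipolar cells. Bipolar arrays read 7.36 and 7.92 (ON) and 7.56 and 7.43 (MP). Amacrine arrays read 10.95 and 11.49 in MP, 10.56 and 10.40 in PaxCre, 10.29 and 10.12 in starburst, 9.88 and 10.47 in J and 9.19 and 9.37 in AII cells. Every bipolar array lay below every other array, amacrine or ganglion. Efnb2 is known in vessels as a marker of arteries and in the retina as a gene of its dorsal side.

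Bipolar cells were 6.51-fold lower than amacrine cells in Efnb2 (-2.70 ± 0.21, SE; limma adjusted p = 1.17e-08) and ganglion cells 3.07-fold higher than bipolar cells (1.62 ± 0.20, adjusted p = 1.50e-06). Within the MP line, where the bipolar and amacrine cells carry the same reporter and strain label and differ in the VC1.1 gate, the difference was 13.2-fold (-3.72 ± 0.35, adjusted p = 5.45e-07). The second probe set gave -3.44 ± 0.19 for bipolar minus amacrine and -4.56 ± 0.32 within the MP line. The other 2 probe sets were dim, with means of 5.11 and 4.88 and 1 and 0 arrays above the filter level. The bipolar differences on the brightest probe set kept their direction and passed in every alternative run.

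Among amacrine subtypes, MP cells were highest in Efnb2 (1.18 ± 0.28 above the others, adjusted p = 0.0046) and AII cells lowest (-1.24 ± 0.28, adjusted p = 0.00204). Without MP replicate 2 the first was 0.92 (adjusted p = 0.122). The MP amacrine arrays also held rod and bipolar genes, with a mean rod marker level of 8.87 to 9.49 against 6.43 to 8.09 on the other amacrine arrays, and their part in this result was not tested.

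Ganglion minus amacrine was -1.08 ± 0.15 for Efnb2 (adjusted p = 4.45e-06), yet the size fell under the threshold on the arrays as deposited (-0.57), without the MP amacrine arrays (-0.85) and without BD replicate 1 (-0.97), and the second probe set gave -0.18 ± 0.14 (adjusted p = 0.239). The J line pair gave -1.80 ± 0.35 (adjusted p = 0.000422).

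Efnb2 was also the ephrin that varied among ganglion subtypes. The arrays read 10.04 and 10.20 in W7, 9.34 and 10.77 in BD, 9.07 and 9.07 in W3, 9.04 and 8.76 in Isl2, 8.23 and 8.97 in Cdh3 and 8.51 and 8.24 in J ganglion cells. W7 lay above all arrays but 1 BD array, and the 2 BD arrays were far apart. W7 cells exceeded the other ganglion subtypes by 1.12 ± 0.27 (limma adjusted p = 0.0371), 1 call among 42 pairs of ephrin and ganglion subtype (2.38%), where 1.17% of such pairs passed over all genes and 1.37% of genes passed in W7. BD minus the others was 1.04 ± 0.27 and J minus the others -0.98 ± 0.27, and neither passed. Without BD replicate 1, BD differed by 1.76 (adjusted p = 0.00103), J by -1.12 (adjusted p = 0.00485) and W7 by 0.98 (adjusted p = 0.0159, under the size threshold).

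The second Efnb2 probe set placed W7 first (10.18 ± 0.35), BD next (9.75 ± 0.75) and J last (8.07 ± 0.35; SD, n = 2 each) among ganglion subtypes. W7 differed on it by 1.26 ± 0.24 and J by -1.28 ± 0.24. The W7 call was lost in 12 of 40 alternatives, among them the omission of either W7 array (adjusted p = 0.162 and 0.443) and the fit on ganglion arrays alone (adjusted p = 0.143), always with the same sign. Vascular markers averaged 6.54 to 6.61 on the W7 arrays, within the range of the other ganglion arrays (5.83 to 7.42), and their part was not tested.

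Of 8 tested genes that are graded across the retina, 2 were lower in W7 than in the other ganglion subtypes and none higher: Vax2, a homeobox gene of the ventral retina (-1.02 ± 0.26, adjusted p = 0.0485), and Crym, a thyroid hormone-binding protein (-1.68 ± 0.26, adjusted p = 0.00118). Among all genes, 0.688% were lower in W7. The list was put together with earlier results of these data known, so its count cannot be weighed against that share. Vax2 was barely past both thresholds, and neither gene was rerun under the alternatives. The retinal position of the W7 cells was not tested.

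The upstream windows of Efnb2 and Efnb1 are shown together because these B-class members peaked in different amacrine subtypes, Efnb2 in MP and Efnb1 in starburst cells.
Efnb2 promoter (chr8:8661243-8661492, minus strand): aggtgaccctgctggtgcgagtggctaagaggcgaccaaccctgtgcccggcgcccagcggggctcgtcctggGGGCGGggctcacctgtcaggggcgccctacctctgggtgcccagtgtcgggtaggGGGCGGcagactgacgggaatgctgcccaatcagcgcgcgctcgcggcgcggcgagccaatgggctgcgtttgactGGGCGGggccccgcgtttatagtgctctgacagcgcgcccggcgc
Efnb1 promoter (chrX:99135811-99136060, plus strand): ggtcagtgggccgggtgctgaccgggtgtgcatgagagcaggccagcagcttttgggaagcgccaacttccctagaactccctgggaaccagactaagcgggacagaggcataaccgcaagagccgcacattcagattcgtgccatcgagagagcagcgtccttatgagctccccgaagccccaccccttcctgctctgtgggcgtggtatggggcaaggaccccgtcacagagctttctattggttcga
With the same marking, Efnb2 held 3 GC boxes and 1 E-box, and Efnb1 held no match to any of the 4 motifs. CpG dinucleotides numbered 27 and 13.

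Efnb1, an X-linked gene whose product is a ligand of EphB receptors, had the widest spread within the amacrine class. Starburst arrays read 10.97 and 10.98, PaxCre arrays 9.77 and 9.79, J arrays 9.39 and 9.37, MP arrays 7.64 and 7.54 and AII arrays 6.35 and 5.69. None of these 5 subtypes overlapped with another. Starburst cells lay above every other array of the series. On AII replicate 2 Efnb1 was under the filter level.

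Starburst cells exceeded the other amacrine subtypes in Efnb1 by 2.78 ± 0.31 (6.88-fold, limma adjusted p = 1.98e-06), and AII cells were 10.7-fold lower than the others (-3.41 ± 0.31, adjusted p = 2.06e-07). MP cells differed by -1.45 ± 0.31 (adjusted p = 0.00228) and PaxCre cells by 1.29 ± 0.31 (adjusted p = 0.00847); the PaxCre difference missed the test without either PaxCre array (1.30 and 1.28, adjusted p = 0.0886 and 0.111). GABAergic exceeded glycinergic subtypes by 2.68 ± 0.28 (6.40-fold, adjusted p = 1.17e-06), Efnb1 and Efna2 being the 2 of 7 ephrins that passed there, where 9.01% of all genes did. All arrays of starburst and PaxCre cells lay above those of J and AII cells. J cells are labelled glycinergic, and at 9.38 they lay closer to PaxCre cells (9.78) than to AII cells (6.02). With C57BL/6 subtypes alone, which leaves out AII and MP, GABAergic minus glycinergic was 1.0 (adjusted p = 0.0684) and PaxCre minus the others -0.40.

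All 3 Efnb1 probe sets were highest in starburst cells, by 2.50 ± 0.25 and 1.04 ± 0.21 on the other pair, and AII cells differed by -1.85 ± 0.25 and -0.91 ± 0.21 on these. PaxCre cells differed on this pair by 0.75 ± 0.25 and 0.31 ± 0.21, both under the size threshold. MP cells differed by -1.19 ± 0.25 and -0.23 ± 0.21, the latter under that threshold, as for AII cells. Ganglion cells (8.59) and bipolar cells (8.24) lay within the amacrine range on the brightest probe set, with ganglion minus amacrine at -0.15 ± 0.17 and bipolar minus amacrine at -0.51 ± 0.23. The next probe set instead gave -1.44 ± 0.14 (adjusted p = 3.12e-08) and -1.34 ± 0.19 (adjusted p = 2.49e-05), so no class difference in Efnb1 held on both.

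Efnb3, a midline repellent of spinal cord axons in mice, is reported by a single probe set. Amacrine arrays read 10.35 and 10.48 in J, 10.09 and 10.11 in PaxCre, 9.55 and 9.39 in MP, 9.66 and 9.12 in AII and 8.50 and 8.25 in starburst cells. Bipolar arrays read 7.50 and 7.52 in ON and 8.88 and 8.90 in MP cells, and ganglion arrays ran from 8.02 through a median of 9.03 to 9.40. J and PaxCre amacrine cells lay above all other arrays and ON bipolar cells below all other arrays.

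Starburst cells were 2.77-fold lower in Efnb3 than the other amacrine subtypes (-1.47 ± 0.20, limma adjusted p = 2.40e-05) and J amacrine cells 2.12-fold higher (1.08 ± 0.20, adjusted p = 0.00143). ON minus MP bipolar was -1.38 ± 0.25 (adjusted p = 0.0015), the single ephrin of 7 to differ between the bipolar subtypes, where 5.03% of all genes did. Bipolar minus amacrine was -1.35 ± 0.15 (adjusted p = 1.43e-06), and J ganglion minus J amacrine -1.56 ± 0.25 (adjusted p = 6.89e-05). All 5 of these differences passed in every alternative run. Because Efnb3 has only 1 probe set, the runs with the next brightest probe set or the median over probe sets left its levels unchanged. W7 ganglion cells had the lowest Efnb3 of the ganglion subtypes (8.20 ± 0.24, SD, n = 2), but the F test among ganglion subtypes was not passed (adjusted p = 0.0819).

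**Figure D2:**
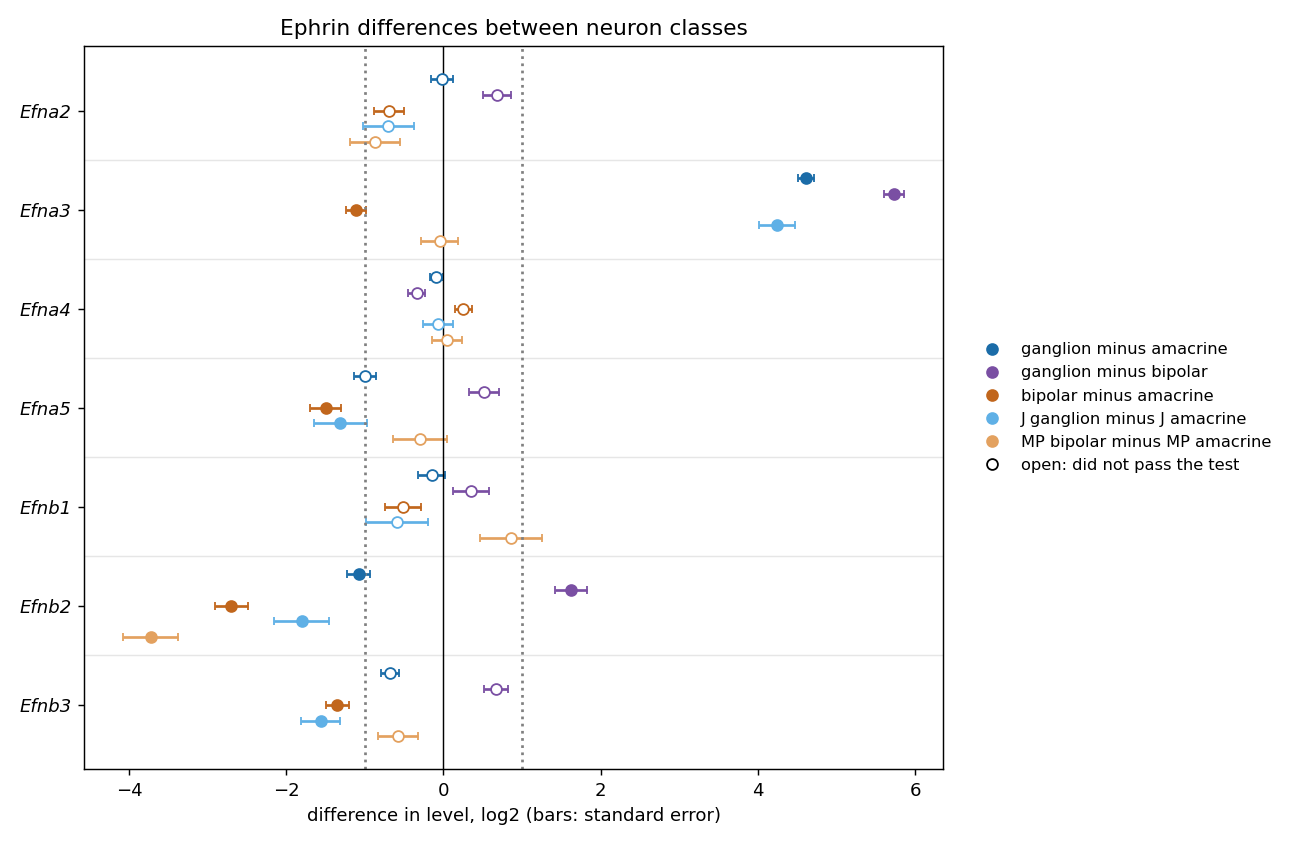
Differences in level (log2, with standard errors) of the 7 tested ephrins between classes and within the J and MP lines; filled points passed the test and dotted lines mark the size threshold of 1. The widest differences were those of Efna3 in ganglion cells, 5.73 over bipolar, 4.61 over amacrine and 4.24 within the J line, followed by that of Efnb2 within the MP line, -3.72.

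By class, 4 of 7 tested ephrins were lower in bipolar than in amacrine cells (Efna3, Efna5, Efnb2 and Efnb3) and none was higher, while 10.4% of all genes passed and 5.70% were lower. The median ephrin difference was -1.11, against 0.01 over all genes. The count was 3, without Efna3, in the alternatives in which Efna3 missed the size threshold (on the next probe set Efna5 was lost too and Efnb1 gained). With C57BL/6 subtypes only it was 6, with Efna2 (-1.47) and Efnb1 (-2.01) added. That setting leaves out the MP and AII cells, so it compares other groups: ON bipolar cells alone against starburst, PaxCre and J amacrine cells. In ganglion against amacrine cells, 2 of 7 passed (Efna3 higher, Efnb2 lower), a share near the 24.8% of all genes. In ganglion against bipolar cells, 2 of 7 passed, both higher (Efna3 and Efnb2), where 29.6% of all genes passed and 18.5% were higher. These 3 comparisons share arrays and are not independent. Within the J line, Efna3 was higher and Efna5, Efnb2 and Efnb3 were lower in ganglion than in amacrine cells, 4 of 7, where 30.8% of all genes passed. Within the MP line Efnb2 alone passed, where 8.37% of all genes did.

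**Figure D3:**
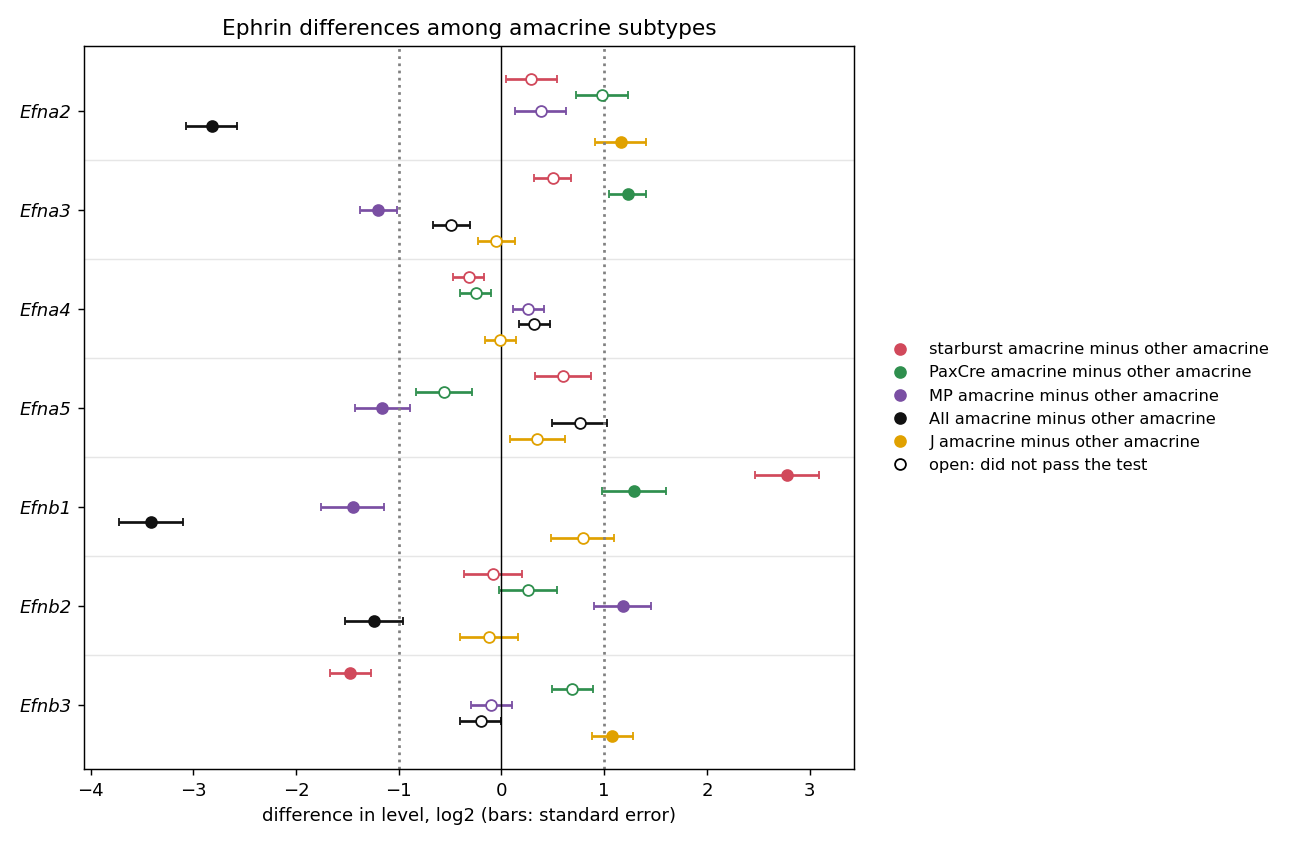
Difference in level (log2, with standard errors) of each tested ephrin between 1 amacrine subtype and the mean of the others; filled points passed the test. AII cells were lower in Efnb1 (-3.41), Efna2 (-2.82) and Efnb2 (-1.24), and starburst cells were higher in Efnb1 (2.78) and lower in Efnb3 (-1.47).

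Taken by amacrine subtype, 13 of 35 pairs of ephrin and subtype passed (37.1%), where 10% passed over all genes. AII cells had 3 lower and none higher, with 16.2% of all genes called and 10.5% lower. In AII cells 6 of 10 tested markers of Müller glia were also lower and 1 higher (median -1.07), the list's mean being 6.81 to 7.15 on AII arrays against 7.02 to 7.99 on the other amacrine arrays, and their part was not tested. MP cells had Efnb2 higher and Efna3, Efna5 and Efnb1 lower (background 10.4%). Starburst cells had Efnb1 higher and Efnb3 lower (10.9%), PaxCre cells Efna3 and Efnb1 higher (6.54%, and 4.97% higher), and J cells Efna2 and Efnb3 higher (6.06%, and 2.80% higher). Each subtype is in the mean against which the others were set, so these counts are linked. AII and MP are the amacrine subtypes not labelled C57BL/6, so their differences cannot be told apart from those of strain. Progenitor genes were highest in PaxCre cells, where 4 of 7 tested markers were higher than in the other amacrine subtypes, and their part was not tested.

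**Figure D4:**
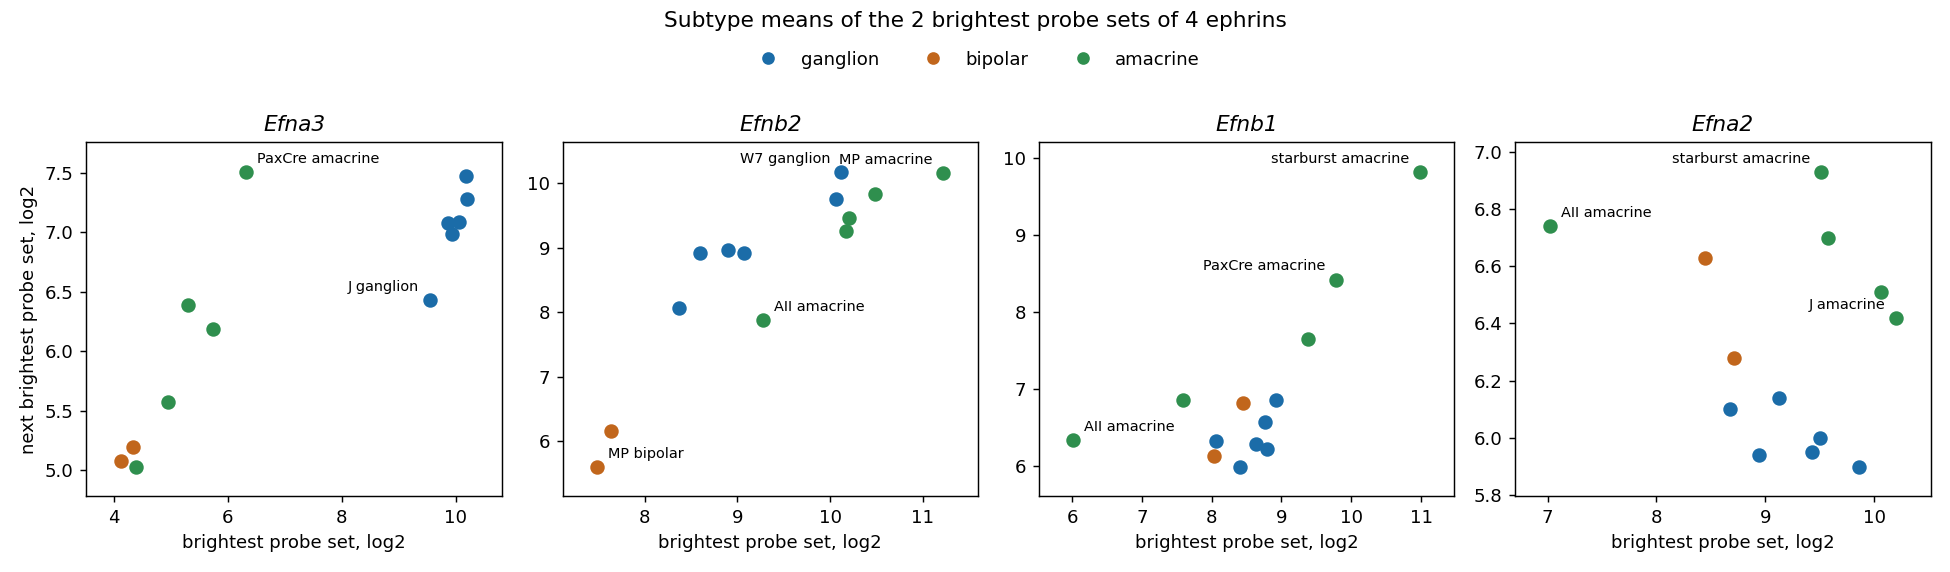
Subtype means (log2) on the brightest probe set against the next brightest, 1 point per subtype, for Efna3, Efnb2, Efnb1 and Efna2. The pair followed each other for Efnb2 (r = 0.89) and not for Efna2 (r = -0.22), and for Efna3 PaxCre amacrine cells joined the ganglion cells on the second probe set only.

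The ephrins did not share 1 pattern. Over the 13 subtype means, Efna2 and Efnb1 correlated with r = 0.75, both being lowest in AII cells, and the other pairs among the 6 ephrins that differed had r between -0.25 and 0.51. These correlations describe 13 points from the same arrays. Among 4964 genes with subtype means spread over at least 2, those most like Efna3 were Naa60 (r = 0.997), Ces5a (0.995) and Oit1 (0.994). Efnb1 was most like Bmp1 (0.945), Tex264 (0.929) and Rab4b (0.921), and Efnb2 most like Zbtb18 (0.913), Atp1b3 (0.838) and Adk (0.830). Efna2 was most like Spon1 (0.892), Mcm5 and Ctif (0.869 each), Efna5 most like Zfp750 (0.861), Clic4 (0.833) and Rasgrp1 (0.832), and Efnb3 most like Cnksr2 (0.851), Fndc1 (0.813) and Plxna1 (0.805). These are the top values of a search over all candidates and were not tested.

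The receptors were read beside their ligands. For them and for the signalling genes below, only the brightest probe set was used. Their other probe sets and the alternative runs were not examined. Of 14 Eph receptor genes 13 were on the array, 10 passed the filter, and Ephb2 was not analysed here. None of the 10 passed limma's F test among ganglion subtypes, where 6.38% of all genes did, and 9 of 10 passed among amacrine subtypes, where 52.5% did, Epha6 being the exception (adjusted p = 0.685). In ganglion against amacrine cells Epha5 (2.13 ± 0.12), Epha6 (2.22 ± 0.11) and Epha4 (1.46 ± 0.21) were higher and Epha7 (-1.10 ± 0.15) and Ephb6 (-1.45 ± 0.17), which lacks kinase activity, were lower. Epha5 and Epha6 bind A-class ephrins. The ganglion sorts held more of these receptors and, on its brightest probe set, of Efna3, whose second probe set gave 0.92 ± 0.11. They held less of the A-class Efna5 (-1.0 ± 0.14, just short of the size threshold) and of the EphA receptor Epha7.

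Bipolar cells, which had low Efnb2, also had the lowest Ephb1: its means were 6.00 in ON and 5.58 in MP bipolar cells, against 7.22 to 10.72 in amacrine subtypes (bipolar minus amacrine -2.89 ± 0.14, limma adjusted p = 3.90e-11). They were higher in Epha3 (3.78 ± 0.29, adjusted p = 9.77e-09), Epha7 (2.37 ± 0.21, adjusted p = 7.84e-08) and Epha4 (1.04 ± 0.29, adjusted p = 0.00901), and lower in Epha8 (-1.39 ± 0.14, adjusted p = 4.48e-07) and Ephb6 (-1.35 ± 0.23, adjusted p = 0.000183). MP amacrine cells, the highest in Efnb2, were also the highest in Ephb1 (10.72, or 2.55 ± 0.19 above the other amacrine subtypes, adjusted p = 4.46e-08).

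AII cells, low in Efna2, Efnb1 and Efnb2, were higher than the other amacrine subtypes in Epha7 (3.74 ± 0.28, adjusted p = 2.01e-08), Epha4 (2.18 ± 0.38) and Epha8 (1.04 ± 0.19), and lower in Epha5 (-1.72 ± 0.22), Epha10 (-1.83 ± 0.19), Ephb1 (-1.83 ± 0.19) and Ephb3 (-1.02 ± 0.20). Starburst cells, with the highest Efnb1, were higher in Ephb6 (1.89 ± 0.31), Epha5 (1.64 ± 0.22), Epha10 (1.63 ± 0.19) and Ephb3 (1.38 ± 0.20) and lower in Epha7 (-2.92 ± 0.28), Epha4 (-2.47 ± 0.38), Ephb1 (-1.69 ± 0.19) and Epha3 (-1.62 ± 0.38). Epha4 and Epha7 were thus higher in AII and lower in starburst cells, opposite to Efnb1. Epha5, Epha10 and Ephb3 were lower in AII and higher in starburst cells, as Efnb1 was. Ephb1 was lower in both.

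**Figure D5:**
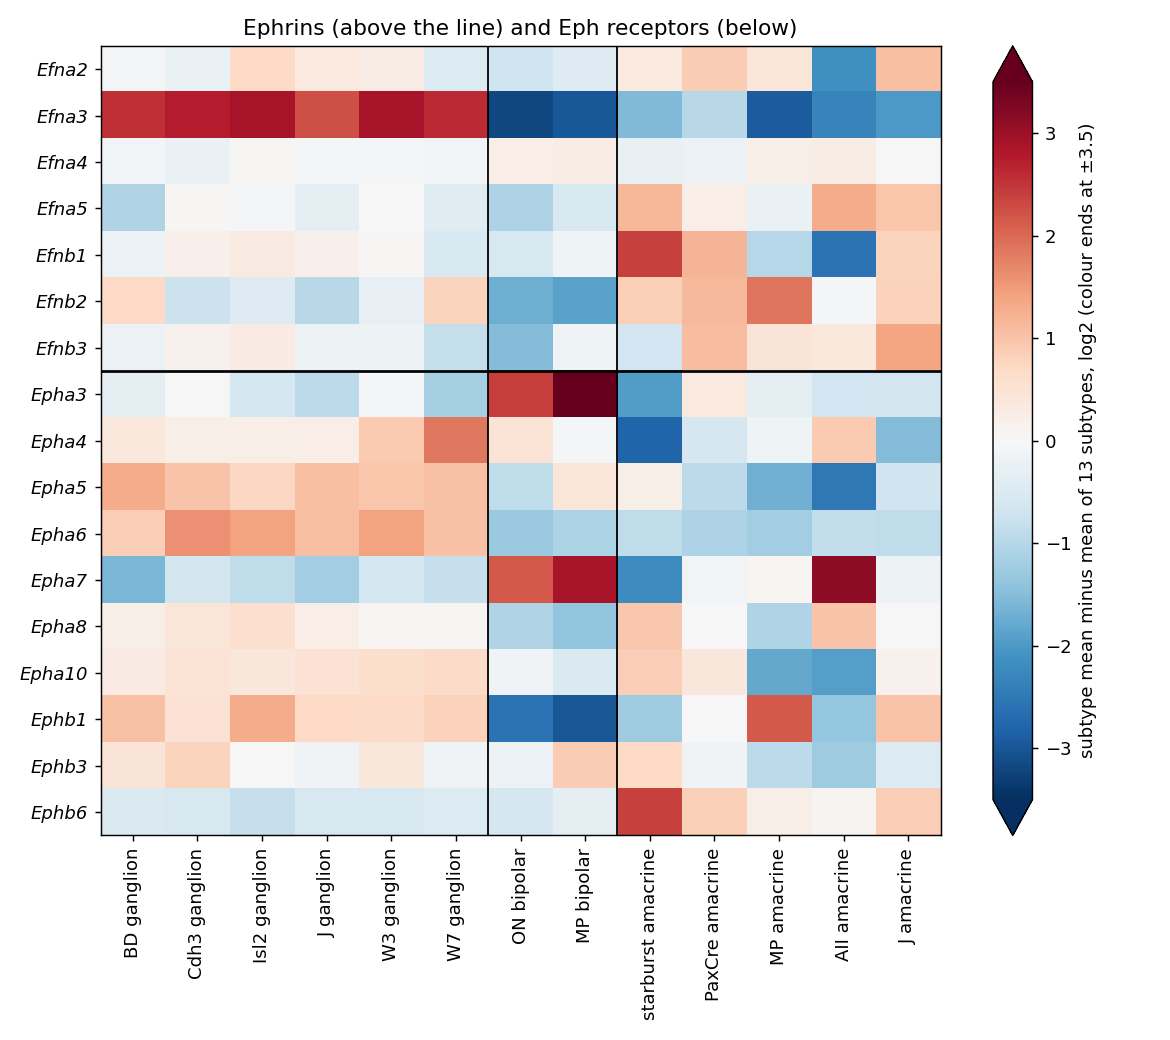
Subtype means of 7 ephrins and 10 Eph receptors, each less the gene's mean over the 13 subtypes (log2; red higher, blue lower, colour ends at 3.5). Bipolar subtypes were high in Epha3 and Epha7 and low in Efnb2 and Ephb1, and AII cells were high in Epha7 and low in Efna2 and Efnb1.

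Proteins that act with the ephrins or downstream of their receptors were counted in the same comparisons. Of 16 genes of reverse signalling and ephrin shedding, 3 were lower in bipolar than in amacrine cells and none higher: Grip1, a PDZ adaptor that binds B-class ephrins (-2.24 ± 0.16, limma adjusted p = 4.68e-09), Ntrk2, a neurotrophin receptor (-2.50 ± 0.21, adjusted p = 3.92e-08), and Ret, a receptor that works with A-class ephrins in mouse motor axons (-5.28 ± 0.10, adjusted p = 9.34e-17). The list's median difference was -0.28, and 10.4% of all genes passed in this comparison, 5.70% being lower. Of 19 genes of forward signalling, 5 were lower and 1 higher in bipolar than in amacrine cells, among them Chn2, a Rac-inactivating chimaerin (-4.03 ± 0.17), lower, and Rasa1, a Ras-inactivating protein (1.06 ± 0.16), higher.

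In ganglion against amacrine cells, where 24.8% of all genes passed, 3 of the 16 reverse signalling genes were higher. They were Rgs3, a G protein regulator that binds B-class ephrins (1.94 ± 0.12), the kinase Fyn (1.14 ± 0.09) and the PDZ protein Sdcbp (1.13 ± 0.14). The PDZ protein Pick1 was lower (-1.26 ± 0.13). The share of this list that passed was near that of all genes. In AII cells, 3 of the 16 were lower than in the other amacrine subtypes and 4 higher, where 16.2% of all genes passed. The Src-family kinases Fyn (-1.84 ± 0.17) and Src (-1.19 ± 0.26) were among the lower ones, but the list as a whole had no single direction. Ngfr, a co-receptor of A-class ephrins on retinal axons, was higher in PaxCre cells than in the other amacrine subtypes (3.83 ± 0.24, adjusted p = 4.41e-09). Ret was 12.5-fold lower there (-3.64 ± 0.14, adjusted p = 8.81e-12).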

How the data were processed

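Total RNA from sorted retinal neurons was amplified in 2 rounds, per the labels' protocols, and hybridised to single-colour Affymetrix arrays, with 2 arrays from different litters for each of 13 subtypes. The deposited values are linear intensities, 1 for each of 45101 probe sets and 26 arrays. Which software, background correction and scaling the authors applied is not given in the sources used here. On each array, 2.87% to 4.01% of values were exactly 1. Scanner files were not used here, so detection calls per array were not available to the fit, and the number of arrays limits the precision.

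Intensities were taken as log2(intensity + 16) and then quantile normalized over the 26 arrays. Probe sets were named from the platform annotation with symbols updated through RefSeq: 34945 had a single symbol, 932 several and 9160 none. The brightest probe set stood for each of 18193 genes, and the 13951 with at least 2 arrays above the median of all probe sets were tested. A group-means model was fitted with limma 3.58.1 in R 4.3.3 (13 residual degrees of freedom, prior 4.59), subtypes having equal weight within a class. P-values of 18 comparisons and 3 F tests were adjusted by Benjamini-Hochberg over all tested genes. GABAergic means starburst and PaxCre cells and glycinergic AII and J cells: PaxCre and J are so labelled, and starburst and AII are so assigned from general knowledge. The code was tested on simulated data.

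All ephrins were described. Genes of fixed receptor, signalling and marker lists were counted, and named where they are Eph receptors or passed in a comparison that an ephrin passed. For each ephrin spread over at least 2, the 3 genes with the closest profile over subtypes were named. The members and lists were chosen with earlier results of these data known. Promoter sequences are those of RefSeq on GRCm38.p6, scanned for 4 motifs. Alternatives covered scaling, pseudocount, filter, probe set, intensity trend, array weights, replicate block, strain, the groups in the fit and the omission of each array; 1 more, without MP amacrine cells, was added after seeing the data.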

Additional observations from a re-analysis of the deposited data

How the results depend on the processing

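The 30 differences that passed were recomputed under up to 41 alternatives, 1189 values in all. Another filter, or leaving out an array of a subtype outside the comparison, cannot change the size of a difference, only its adjusted p. Many of these values were therefore bound to stay the same. Of the 1189, 1137 kept direction and call, 48 kept the direction only and 4 changed sign. Those 4 were Efna2 on its next brightest probe set in AII (0.10) and J amacrine cells (-0.31), and, with C57BL/6 subtypes only, Efna2 in GABAergic against glycinergic cells (-0.42) and Efnb1 in PaxCre cells (-0.40). C57BL/6 subtypes only also left 3 calls in place of 13 among amacrine subtypes, 3 ephrins in place of 6 in the amacrine F test and 1 in place of 2 between GABAergic and glycinergic cells, with fewer subtypes in the fit; that 1 was Efnb3 (-1.18), and both earlier calls were lost. That count was also 1, Efnb1, with the median over probe sets and with a pseudocount of 64. Ganglion against amacrine cells gave 1 call in place of 2 as deposited (Efna3) and with the next brightest probe set (Efnb1, -1.44, both earlier calls being lost), and 3 in some others, and ganglion against bipolar cells 5 in place of 2 as deposited. The single call among ganglion subtypes became 0 with the median over probe sets, only the groups compared or a pseudocount of 4, and 2 with a median shift or the next brightest probe set; leaving out 1 array gave 0 to 3. The ganglion F test, with 1 ephrin, gave 3 with array weights, 0 with only the groups compared and 1 to 2 when 1 array was left out. The replicate block gave 3 there. The labels do not pair arrays of different subtypes by replicate number. Over 78 pairs of subtypes, same-numbered deviations correlated between -0.23 and 0.37 (median 0.03), with 21 pairs over 0.1. Whether some subtypes were processed together by replicate was not tested. Except where fewer subtypes or another probe set entered by construction, the cause was not tested. As deposited, the median of all genes lay 0.53 higher in ganglion than in amacrine cells, 0.53 higher than in bipolar cells and 0.56 higher within the J line, where quantile normalization gave 0, -0.02 and 0.03. Of the genes called, 85.5%, 83.9% and 83.2% were then higher in ganglion cells, against 63.7%, 62.3% and 59.8% after normalization. Values near the filter level, those of Efna1 and Efna4, are limited by dim signal.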
